A study of Homo sapiens with 12 samples.

Results

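The zinc finger genes of chromosome 19 were examined for ARID1A and H3K4me3 at their promoters in RT112 cells. Members were the protein-coding genes of GENCODE 44 on chromosome 19 whose symbol is ZNF followed by a number, which gave 248 of the 1432 protein-coding genes of that chromosome and of 19626 on chromosomes 1 to 22 and X. The other 1184 protein-coding genes of chromosome 19 served as the comparison. RT112, an established line from a human transitional cell carcinoma of the bladder, carries intact ARID1A per the study. ARID1A is a DNA-binding subunit of SWI/SNF, a complex that moves nucleosomes. CUT&RUN releases the DNA near an antibody's target with a tethered nuclease, and it was run with 2 ARID1A antibodies (Abcam and CST), with an antibody against H3K4me3, a histone mark of active promoters, and with IgG. Each of these 4 groups had 3 replicates, 12 samples in all, from cells of 1 line with no treatment named, so that nothing here speaks to other cells. The authors' lists, 1 per antibody and merged over replicates, held 37501 Abcam, 32932 CST and 9765 H3K4me3 regions, with positions but no signal. Hence no value below has a replicate error, the depth is unknown, and the IgG control was not analysed here. All 13 urothelial and epithelial marker genes checked had regions of all 3 lists at their promoters, and none of 9 markers of liver, blood, muscle and neurons had any.

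Most of these genes encode proteins with an array of C2H2 zinc fingers that reads DNA and, at the other end, a KRAB domain. The KRAB domain recruits TRIM28 and with it SETDB1, which lays down H3K9me3, so that the proteins are known as repressors of transposons and of genes. The family grew by repeated local duplication, so neighbours along chromosome 19 are often close copies, and the zinc finger array usually lies in the last exon.

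Promoters of 4 members are printed as examples of the starts of such genes under the regions described here. The number of words searched differs between members, so these 4 need not be typical. The windows of ZNF569 and ZNF570, inside an H3K4me3 region with no ARID1A, held none of the words searched and are not printed. The printed promoters are RefSeq sequences (GRCh38.p14) on the gene's strand, 5′ to 3′, with 250 bases before the start and 50 after it. Capitals mark the words searched, all on both strands, namely the ETS core CCGGAA, the GC box GGGCGG, the CCAAT box, the AP-1 word TGANTCA, the ZNF143 core ACTACAA, the NRF1-like word GCATGCGC, the palindrome CTCGCGAG and the TATA word TATAAA. Words may overlap. ZNF584 (chr19:58408399-58408698, plus strand) and ZNF865 (chr19:55605397-55605696, plus strand) lay inside regions of both antibodies and of H3K4me3. ZNF264 (chr19:57191250-57191549, plus strand) and ZNF45 (chr19:43935233-43935532, minus strand) lay inside H3K4me3 regions and had no ARID1A region.
ZNF584: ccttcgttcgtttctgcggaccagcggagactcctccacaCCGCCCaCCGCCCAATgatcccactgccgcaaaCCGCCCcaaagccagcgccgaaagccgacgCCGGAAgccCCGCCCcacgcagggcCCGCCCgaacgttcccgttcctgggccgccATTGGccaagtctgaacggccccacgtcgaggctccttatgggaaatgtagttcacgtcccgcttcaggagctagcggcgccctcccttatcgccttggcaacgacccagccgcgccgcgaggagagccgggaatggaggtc
ZNF865: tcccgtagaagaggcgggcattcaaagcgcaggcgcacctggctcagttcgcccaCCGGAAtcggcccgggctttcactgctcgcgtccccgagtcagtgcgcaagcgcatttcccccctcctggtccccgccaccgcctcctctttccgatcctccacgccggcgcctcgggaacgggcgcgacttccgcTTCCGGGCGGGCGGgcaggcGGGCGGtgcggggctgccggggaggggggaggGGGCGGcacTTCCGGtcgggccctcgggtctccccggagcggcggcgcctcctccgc
ZNF264: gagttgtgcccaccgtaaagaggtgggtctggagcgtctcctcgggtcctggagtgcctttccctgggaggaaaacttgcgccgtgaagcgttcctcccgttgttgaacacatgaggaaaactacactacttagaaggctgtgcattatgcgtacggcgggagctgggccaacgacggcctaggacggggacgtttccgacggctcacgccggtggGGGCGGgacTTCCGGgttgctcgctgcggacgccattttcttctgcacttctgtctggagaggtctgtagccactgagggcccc
ZNF45: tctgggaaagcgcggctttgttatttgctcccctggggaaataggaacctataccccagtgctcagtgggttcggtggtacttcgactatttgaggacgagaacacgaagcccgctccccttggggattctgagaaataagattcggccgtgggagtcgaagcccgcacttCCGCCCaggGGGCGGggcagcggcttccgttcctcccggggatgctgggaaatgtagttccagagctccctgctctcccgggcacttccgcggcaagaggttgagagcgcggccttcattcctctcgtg

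H3K4me3 was more frequent at ZNF promoters than at other promoters of the chromosome, and ARID1A was less frequent, though the difference in H3K4me3 turned round when narrow regions were left out. Promoters were windows reaching 1 kb to each side of every transcription start site (TSS) of the protein-coding transcripts. H3K4me3 regions lay at 178 of 248 ZNF genes (71.8%, 95% exact binomial interval 65.7 to 77.3%), against 50.3% of other chromosome 19 genes (596 of 1184) and 53.1% of all protein-coding genes. Abcam regions lay at 86 ZNF genes (34.7%, 28.8 to 41.0%), against 43.2% of other chromosome 19 genes and 46.7% of all genes. Without the genes whose promoter window overlaps that of another gene, Abcam lay at 59 of 203 ZNF genes, against 307 of 868 other chromosome 19 genes, a difference of -6.305 percentage points whose 95% interval by the normal approximation, -13.3 to 0.705, spans 0. CST regions lay at 69 ZNF genes (27.8%, 22.3 to 33.8%), against 39.5% and 41.9%. Regions of both antibodies lay at 56 ZNF genes (22.6%, 17.5 to 28.3%), against 35.7% of other chromosome 19 genes and 38.2% of all genes. Without a region of any list were 65 ZNF genes (26.2%), against 40.3% of other chromosome 19 genes and 39.7% of all genes. These intervals cover counting error alone and take each gene as independent, whereas neighbouring genes can share a region and copies can share sequence. No test over genes was made.

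The combination of H3K4me3 with no ARID1A region of either antibody was found at 84 ZNF genes (33.9%, 28.0 to 40.1%) and at 151 other chromosome 19 genes (12.8%, 10.9 to 14.8%). Among genes with H3K4me3, both antibodies were present at 53 of 178 ZNF genes (29.8%, 23.2 to 37.1%), against 58.7% of other chromosome 19 genes (350 of 596) and 63.8% of all genes. Either antibody was present at 94 of these 178 ZNF genes (52.8%) and at 445 of the 596 others (74.7%). Most ZNF genes have several annotated TSSs, and among genes with 1 TSS position and H3K4me3 both antibodies were present at 6 of 14 ZNF genes (42.9%), against 42 of 85 others (49.4%). ZNF genes of other chromosomes, 264 in number, had H3K4me3 as often as those of chromosome 19 to within the intervals (70.5%, 64.5 to 75.9%) and carried both antibodies at 105 of 186 promoters with H3K4me3 (56.5%, 49.0 to 63.7%). Genes of other names that lie inside the ZNF clusters, 75 in number, had H3K4me3 at 30, and 15 of these 30 had both antibodies (interval 31.3 to 68.7%), which overlaps the interval of the ZNF genes. Either antibody was present at 24 of these 30 (80.0%, 61.4 to 92.3%), an interval above that of the ZNF genes (45.2 to 60.3%). H3K4me3 with no ARID1A region was found at 6 of the 75 (8.0%, 2.99 to 16.6%), an interval below that of the ZNF genes. Over all 75, both antibodies were present at 22.7% (13.8 to 33.8%), Abcam at 29.3% and CST at 28.0%, so that over all promoters the shares were as low at these neighbours as at the ZNF genes to within the intervals.

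Abcam without CST was found at 30 ZNF genes (12.1%, 8.31 to 16.8%), all with H3K4me3. CST without Abcam was found at 13 (5.24%, 2.82 to 8.80%), of which 11 had H3K4me3. Abcam alone was also the more frequent at other chromosome 19 genes, with 88 (7.43%) against 45 (3.80%). Over all genes it was 1653 (8.42%) against 720 (3.67%). At 54 of the 56 ZNF genes with both, an Abcam region overlapped a CST region. The counts of regions are smaller than those of genes because of shared promoters. The 86 genes with Abcam rested on 80 regions, of which 7 served 2 ZNF genes and 13 also lay at the promoter of a gene of another name. For H3K4me3 there were 174 regions, with 11 serving 2 ZNF genes and 22 also at another gene.

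The members fell into clusters along the chromosome, here chains of ZNF genes with at most 250 kb between neighbouring gene bodies and at least 5 members. There were 12 clusters with 232 members, numbered from the short-arm end, and 16 members were scattered. H3K4me3 ranged from 17.2% of members in cluster 5 to all 5 members of cluster 6, and both antibodies from 0 of 8 in cluster 4 to 4 of 7 in cluster 10. On the short arm, cluster 1 (ZNF554 to ZNF77) had H3K4me3 at 4 of 5 members and both antibodies at 2, cluster 2 (ZNF317 to ZNF846) at 9 and 4 of 12, and cluster 3 (ZNF653 to ZNF791) at 22 and 7 of 25. In cluster 3 Abcam lay at 15 members and CST at 8. On the long arm, cluster 6 (ZNF302 to ZNF792) had both antibodies at 2 of 5 members. Cluster 7 (ZNF565 to ZNF573) had H3K4me3 at 23 and both antibodies at 8 of 26 members. In cluster 8 (ZNF575 to ZNF180) these were 19 and 3 of 23, in cluster 9 (ZNF175 to ZNF331) 30 and 8 of 40, and in cluster 11 (ZNF787 to ZNF835) 5 and 2 of 9. Cluster 12 (ZNF264 to ZNF446), the largest with 43 members, had H3K4me3 at 37 and both antibodies at 7. Within it, 30 consecutive ZNF genes from ZNF543 to ZNF329 (chr19:57320472-58155110) had no promoter with both antibodies. Cluster 10 (ZNF628 to ZNF581) had H3K4me3 and Abcam at 6 of 7 members each. The scattered members had both antibodies at 8 of 16 (interval 24.7 to 75.3%), against 48 of 232 in clusters (20.7%).

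**Figure D1:**
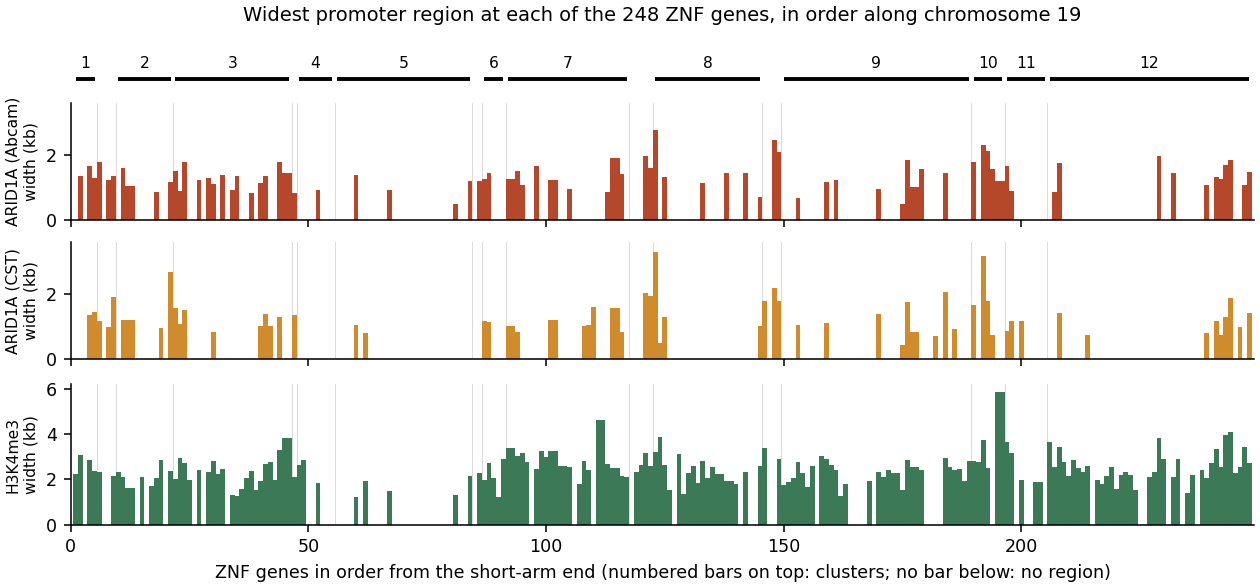
Width in kb of the widest promoter region at each of the 248 ZNF genes, in order along chromosome 19, for ARID1A (Abcam), ARID1A (CST) and H3K4me3, with the clusters numbered above. H3K4me3 is present at 160 of 195 genes of the other clusters and at 8 of 37 in clusters 4 and 5. Within cluster 12, ARID1A of either antibody is present at 13 of 43 genes (30.2%), near clusters 8 (30.4%) and 9 (30.0%).

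**Figure D2:**
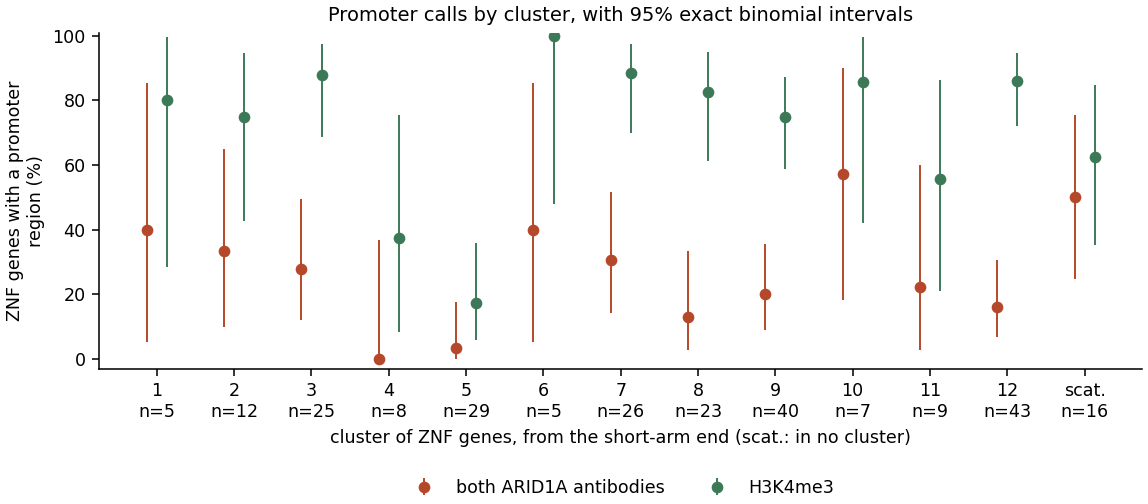
Share of ZNF genes with both ARID1A antibodies and with H3K4me3 at the promoter, in percent, by cluster, with 95% exact binomial intervals and the number of members. Cluster 5 has the lowest H3K4me3 share, 17.2%, and cluster 10 the highest share with both antibodies, 57.1%, on 7 genes.

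Clusters 4 (ZNF101 to ZNF486) and 5 (ZNF737 to ZNF254), near the centromere on the short arm, had the lowest shares with H3K4me3. This pairing was not planned. H3K4me3 lay at 8 of their 37 members (21.6%, 9.83 to 38.2%), against 160 of 195 in the other clusters (82.1%, 75.9 to 87.2%). Taken singly, it lay at 3 of 8 members of cluster 4 (37.5%, 8.52 to 75.5%). In cluster 5 it lay at 5 of 29 (17.2%, 5.85 to 35.8%). Both intervals overlap that of cluster 11 (21.2 to 86.3%). Both antibodies lay at 1 of 37 (2.70%, 0.07 to 14.2%), against 47 of 195 (24.1%, 18.3 to 30.7%). In cluster 4, H3K4me3 lay at ZNF101 (2640 bp), ZNF14 (2858 bp) and ZNF93 (1863 bp). In cluster 5, which spans 3.594 Mb, 24 of 29 members had no region of any list, and 13 consecutive ZNF genes from ZNF43 to ZNF91 (chr19:21804946-23395471) had none. The 5 members of cluster 5 with H3K4me3 were ZNF430 (1213 bp), ZNF431 (1937 bp), ZNF100 (1471 bp), ZNF675 (1302 bp) and ZNF254 (2135 bp), and each of them had ARID1A of at least 1 antibody. ZNF430 was the one with both, an Abcam region of 1387 bp and a CST region of 1066 bp.

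The promoters of cluster 5 were alike in sequence. Over all pairs of its 23 members with a RefSeq promoter, the median identity of the windows of 300 bases, taken as the share of bases left after subtracting the edit distance, was 76.7%. In the other clusters the median ran from 46.7 to 52.3%, and between neighbouring other genes of chromosome 19 it was 46.3%. ZNF91, a repressor of SVA retrotransposons, had no region of any list, and its promoter (chr19:23395422-23395721, minus strand) was 78.7% identical to that of ZNF430 (chr19:21020407-21020706, plus strand), which lay inside regions of both antibodies. This pair was chosen after its values were seen, to show promoters of like sequence without and with regions, and both carry CCAAT and, near the start, a GC box beside the ETS core.
ZNF91: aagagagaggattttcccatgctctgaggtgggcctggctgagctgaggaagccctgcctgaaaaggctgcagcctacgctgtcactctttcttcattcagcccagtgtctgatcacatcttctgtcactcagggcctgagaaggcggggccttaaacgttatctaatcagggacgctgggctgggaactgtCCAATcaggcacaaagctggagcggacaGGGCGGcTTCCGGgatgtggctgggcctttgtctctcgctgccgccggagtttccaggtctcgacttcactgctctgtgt
ZNF430: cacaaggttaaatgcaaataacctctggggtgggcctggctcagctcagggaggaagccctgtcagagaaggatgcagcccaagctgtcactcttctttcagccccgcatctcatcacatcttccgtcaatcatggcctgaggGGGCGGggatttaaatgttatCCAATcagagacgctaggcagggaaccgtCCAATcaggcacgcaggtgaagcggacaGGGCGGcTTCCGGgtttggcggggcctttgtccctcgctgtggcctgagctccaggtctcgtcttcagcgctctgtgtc
Unique sequence was scarcer there. The authors removed reads that map to more than 1 place, and the share of 31-base words of the promoter window that occur at a single place in the genome had a median of 75.5% in cluster 5 and 80.7% in cluster 4, against 88.0% over all ZNF genes and 90.2% over other chromosome 19 genes. It was 83.8% for the 65 ZNF genes with no region and 89.8% for those with H3K4me3 and no ARID1A. The libraries were sequenced paired-end, so this share of 31-base words is not the share of fragments that map to 1 place. The part of unique sequence in the missing regions was not tested. Among genes with at least 95% of these words at a single place, H3K4me3 lay at 48 of 60 ZNF genes, against 202 of 335 other genes, and both antibodies at 15 of the 48, against 123 of the 202.

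The ZNF genes with the widest ARID1A regions, ranked by the narrower of the antibodies, were ZNF575, ZNF524, ZNF114, ZNF574, ZNF584, ZNF865, ZNF473, ZNF888, ZNF628 and ZNF526. ZNF575, the first gene of cluster 8, had an Abcam region of 2754 bp (chr19:43524966-43527719), a CST region of 3312 bp and an H3K4me3 region of 3209 bp, all overlapping. ZNF524 in cluster 10 had 2283 bp with Abcam, 3178 bp with CST and 3729 bp with H3K4me3. ZNF473, which takes part in the processing of histone messenger RNA, had 2084 bp with Abcam, 1779 bp with CST and 2910 bp with H3K4me3. ZNF574 had 1947, 2055 and 3156 bp in the same order, and ZNF584 had 1829, 1872 and 4091 bp. Of these 10 genes, 4 were scattered, 3 belonged to cluster 10 and 7 lacked the KRAB-like stretch described below. Of all 56 ZNF genes with both antibodies, 8 were scattered, 4 belonged to cluster 10 and 19 lacked the stretch. The last in this ranking, ZNF628 and ZNF526, had Abcam regions of 1761 and 1591 bp.

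ARID1A without H3K4me3 was rare at ZNF promoters. Both antibodies without H3K4me3 were seen at 3 ZNF genes (1.21%) and at 73 other chromosome 19 genes (6.17%). The 3 ZNF genes were ZNF114 (Abcam 2456 bp, CST 2199 bp), ZNF414 (Abcam 1222 bp, CST 987 bp) and ZNF784 (Abcam 1550 bp, CST 748 bp). At ZNF114 the regions lay inside the gene, centred 1497 bp (Abcam) and 1710 bp (CST) after the nearest TSS.

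The widest H3K4me3 regions without ARID1A were at ZNF569 and ZNF570, head-to-head neighbours in cluster 7 that shared 1 region of 4632 bp (chr19:37465977-37470608). They were followed by ZNF264 (3645 bp), ZNF567 (3268 bp) and ZNF45 (3118 bp). RefSeq places the start of ZNF567 elsewhere, inside the Abcam region counted here at ZNF461. Regions of 1 antibody alone were widest for Abcam at ZNF552 (1963 bp), ZNF461 (1659 bp), ZNF160 (1552 bp) and ZNF226 (1431 bp). For CST alone they were widest at ZNF296 (1780 bp), ZNF527 (1614 bp), ZNF583 (1177 bp) and ZNF875 (1041 bp), and ZNF527 had no H3K4me3 region.

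Members with known roles differed in their calls. ZNF274, which binds the 3′ exons of other ZNF genes and recruits SETDB1, had Abcam (1072 bp), CST (822 bp) and H3K4me3 (2087 bp). ZNF146, a protein made almost wholly of zinc fingers, shared its promoter with ZNF565, with Abcam 1251 bp, CST 1039 bp and H3K4me3 3372 bp. ZNF180 had narrow ARID1A regions (Abcam 709 bp, CST 1011 bp) under an H3K4me3 region of 2596 bp, and ZNF444, a SCAN domain protein, had Abcam 890 bp, CST 1164 bp and H3K4me3 3160 bp. ZNF93, a repressor of L1 retrotransposons, had Abcam (902 bp) and H3K4me3 but no CST region. The same held for ZNF675, a protein described as binding TRAF6, with an Abcam region of 489 bp. H3K4me3 with no ARID1A region was found at the imprinted gene ZNF331 (2821 bp) and at ZNF568 (2582 bp), whose mouse counterpart represses Igf2. ZNF382 had no region of any list, like ZNF91.

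Promoter regions at ZNF genes were narrower than at other genes in all 3 lists. Width is the sole quantity the lists give, and for each gene the widest region at its promoter was taken. The median H3K4me3 width was 2431.5 bp at 178 ZNF genes (95% interval of the median 2324 to 2559 bp), against 3082.5 bp at 596 other chromosome 19 genes (2968 to 3161 bp). For Abcam it was 1296 bp at 86 ZNF genes (1220 to 1424 bp), against 1722 bp (1640 to 1786 bp), and for CST 1190 bp at 69 ZNF genes (1066 to 1352 bp), against 1593 bp (1515 to 1685 bp). ZNF genes of other chromosomes had medians of 2919.5 bp (H3K4me3), 1638 bp (Abcam) and 1658 bp (CST). The narrowness bears on the counts. When narrow regions, under the median width of their list, were left out, H3K4me3 lay at 29 ZNF genes (11.7%), against 303 other chromosome 19 genes (25.6%), so that the sign of the difference turned round.

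**Figure D3:**
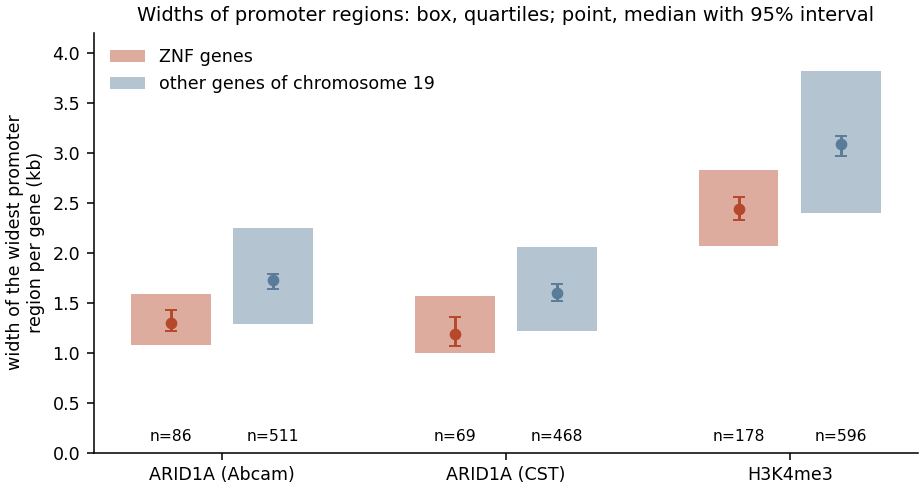
Width in kb of the widest promoter region per gene at ZNF genes and other genes of chromosome 19 in each list, with quartiles as boxes and the median with its 95% interval as a point. In each list the median of ZNF genes lies under that of the other genes, 2431.5 against 3082.5 bp for H3K4me3.

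H3K4me3 regions were wider where ARID1A was present. ZNF genes with ARID1A of either antibody had a median H3K4me3 width of 2573 bp (2461 to 2764 bp), against 2229 bp (2118 to 2351 bp) for ZNF genes without, and other chromosome 19 genes had 3193 and 2695 bp in the same order. Within a class of H3K4me3 width, ZNF genes still carried both antibodies less often. Under 2 kb they did at 6 of 40 ZNF genes (interval 5.71 to 29.8%), against 23 of 53 other genes (43.4%, 29.8 to 57.7%). From 2 to 3 kb they did at 32 of 107 (29.9%, 21.4 to 39.5%), against 117 of 226 (51.8%, 45.1 to 58.4%). From 3 to 4 kb the intervals overlapped, with 14 of 26 ZNF genes (53.8%, 33.4 to 73.4%) against 116 of 193 (60.1%, 52.8 to 67.1%). For either antibody this class went the other way, with 22 of 26 ZNF genes (84.6%, 65.1 to 95.6%) against 149 of 193 (77.2%, 70.6 to 82.9%). In the other classes either antibody was less frequent at ZNF genes. At 4 kb or more there were 5 ZNF genes, with both antibodies at 1 of them, ZNF584, against 94 of 124. The others were ZNF569 with ZNF570, and ZNF580 with ZNF581, which had Abcam alone under a shared H3K4me3 region of 5872 bp, the widest at any member.

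Members with a KRAB-like stretch carried both antibodies less often than those without. The longest coding sequence of each gene was translated, and 212 of 248 proteins matched at least 8 of 11 conserved positions of the KRAB A box. H3K4me3 was similarly frequent, at 151 of 212 KRAB-like and 27 of 36 other members. Both antibodies lay at 37 KRAB-like members (17.5%, 12.6 to 23.2%), against 19 of the 36 others (52.8%, 35.5 to 69.6%). Among those with H3K4me3, both antibodies lay at 36 of 151 KRAB-like members (23.8%, 17.3 to 31.4%) and at 17 of 27 others (63.0%, 42.4 to 80.6%), beside 58.7% of other chromosome 19 genes. No ARID1A region lay at 81 of the 151 KRAB-like members and at 3 of the 27 others. The 36 members without the stretch included all 7 of cluster 10, both first members of clusters 8 and 11, ZNF146 and ZNF180. KRAB-like members had a median of 13 zinc fingers, against 9.5 for the others, and a median promoter GC content of 59%, against 64.2%. The split was examined after the calls were known. With clusters 4 and 5 left out, both antibodies lay at 35 of 143 and 17 of 27 members with H3K4me3. Among promoters with at least 95% unique words it was 10 of 36 KRAB-like members (27.8%, 14.2 to 45.2%) and 5 of 12 others (41.7%, 15.2 to 72.3%), whose intervals overlap.

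**Figure D4:**
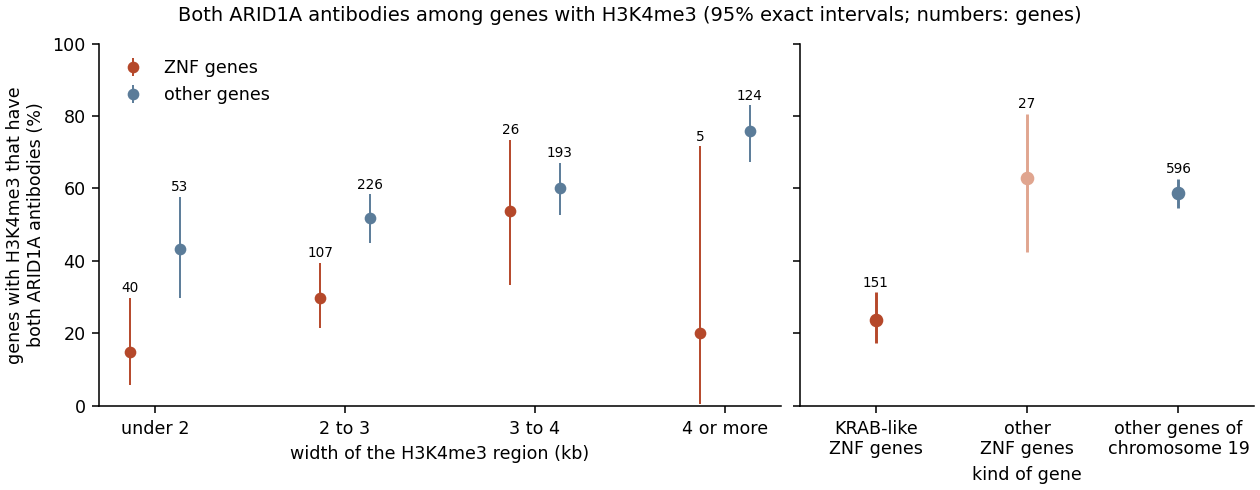
Share of genes with H3K4me3 that carry both ARID1A antibodies, in percent with 95% exact intervals and the number of genes above each. On the left, ZNF genes and other chromosome 19 genes by H3K4me3 width, where ZNF genes lie lower under 3 kb; on the right, KRAB-like ZNF genes (23.8%), other ZNF genes (63.0%) and other chromosome 19 genes (58.7%).

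Around the most upstream TSS, the regions at ZNF genes ended more sharply than at other genes. H3K4me3 covered the TSS itself at 64.9% of ZNF genes and at 45.5% of other chromosome 19 genes, and its highest point at ZNF genes was 66.1% at 650 bp after the TSS. At 2000 bp after the TSS it covered 8.06% of ZNF genes and 17.6% of others. Abcam covered the TSS at 29.8% of ZNF genes and 33.5% of others, but at 1000 bp before the TSS 2.82% and 15.3%, and at 1000 bp after it 4.44% and 15.4%. At 4000 bp after the TSS, Abcam covered 0.81% of ZNF genes and 4.90% of others. Where a region covered the TSS, Abcam reached a median of 578 bp upstream and 751 bp downstream at 74 ZNF genes, against 830 and 809.5 bp at 396 others. H3K4me3 reached 871 bp upstream and 1516 bp downstream at 161 ZNF genes, against 1139 and 1730 bp. ARID1A at ZNF genes mostly lay within the H3K4me3 region, with the widest Abcam region wholly inside it at 75 of 83 genes (90.4%), against 300 of 416 others (72.1%).

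**Figure D5:**
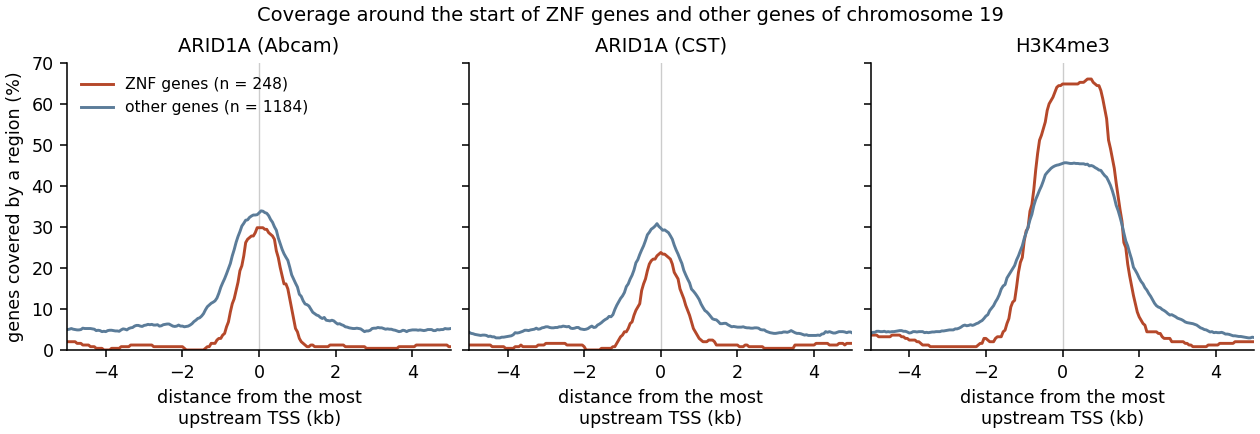
Share of genes covered by a region, in percent, from 5 kb before to 5 kb after the most upstream TSS, for 248 ZNF genes and 1184 other genes of chromosome 19. The ARID1A curves of ZNF genes are narrower and fall to 0.81% (Abcam) at 4000 bp, where the other genes stay at 4.90%, and the H3K4me3 curve of ZNF genes stands higher at the TSS, 64.9% against 45.5%.

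Away from promoters, ARID1A was sparse in the ZNF clusters. Inside the clusters, which span 13.01 Mb, there were 123 Abcam regions (9.46 per Mb), against 1036 in the remaining 45.61 Mb (22.7 per Mb). The clusters differed, from 2.23 per Mb in cluster 5 to 32.0 in cluster 1 and 41.4 in cluster 10, promoters included. Outside promoters of protein-coding genes the density was 2.69 per Mb inside clusters and 12.6 per Mb elsewhere for Abcam, and 2.54 and 11.7 per Mb for CST. H3K4me3 regions were denser inside the clusters, 14.1 per Mb against 11.3 per Mb, and 178 of the 183 lay at promoters. For the 84 ZNF genes with H3K4me3 and no ARID1A, the nearest ARID1A region of either antibody lay a median of 43156 bp from a TSS (36618 to 50933 bp), against 12627 bp (9791 to 15962 bp) for the 151 other chromosome 19 genes. It lay within 3 kb for 1 of these ZNF genes and over 10 kb away for 75 (89.3%), against 20 and 88 (58.3%) of the others.

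The 3′ exons of ZNF genes were nearly bare of regions. The last exon of the transcript with the longest coding sequence had a median length of 3226.5 bp at ZNF genes and 705 bp at other chromosome 19 genes, 889247 and 1361636 bp in sum. Regions of either ARID1A antibody touched it at 3 of 248 ZNF genes (1.21%, 0.250 to 3.49%), against 102 of 1184 others (8.61%, 7.08 to 10.4%). Abcam covered 0.12% of the last exon bases of ZNF genes and 4.12% of the others', and H3K4me3 covered 0.302 and 4.35%. Over 1 kb from every TSS there was ARID1A at 1 ZNF gene (0.403%, 0.0102 to 2.23%), against 40 other genes (3.38%, 2.42 to 4.57%), and H3K4me3 at none, against 7. That gene was ZNF865, where a CST region of 1170 bp (chr19:55614265-55615434) lay inside the last exon, 8618 bp from the nearest TSS. With the last exons of every transcript the count was 3, since ZNF552 and ZNF586 were added, each with regions of both antibodies. The remaining overlaps were at ZNF524, ZNF580, ZNF581 and ZNF324, whose last exons reach promoter regions, at ZNF324 a region it shares with ZNF446 downstream. The last exons were also poorer in unique sequence, with a median of 87.1% unique words at ZNF genes against 100% at others, and its part in the missing regions was not tested.

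Over whole gene bodies, 81 of 98 Abcam regions at ZNF genes lay at promoters (82.7%), against 469 of 797 at other genes (58.8%). Intronic Abcam regions away from promoters numbered 16 at ZNF genes, or 2.02 per Mb of gene body, against 245, or 8.82 per Mb. For CST they numbered 13 (1.64 per Mb) against 214 (7.71 per Mb).

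The promoter sequences of ZNF genes differed from those of other genes in a few words. RefSeq promoters were matched for 217 of 248 ZNF genes, 945 other chromosome 19 genes and 15283 genes in all. The ETS core CCGGAA stood in 56.2% of ZNF promoters, against 22.01% of other chromosome 19 promoters and 23.04% of all. CCAAT stood in 53.9%, against 37.5 and 36.5%, and TATAAA in 1.84%, against 8.04 and 9.64%. The GC box was found in 67.7%, against 66.6 and 59.2%. AP-1 words were found in 6.45% (4.66 and 5.75%), ZNF143 core words in 5.07% (2.75 and 3.21%), NRF1-like words in 4.15% (5.19 and 4.24%) and CTCGCGAG in 0.92% (1.06 and 1.56%). In cluster 5, all 23 promoters held CCAAT and 22 held the ETS core. For CCAAT, clusters 1 to 6, 10 and 12 lay above the share of other chromosome 19 genes. Below it were clusters 7 (6 of 25), 8 (4 of 19), 9 (10 of 33) and 11 (2 of 8). Scattered members were below it too (2 of 14). For the ETS core, clusters 1 (1 of 5) and 4 (1 of 6) lay below the share of those genes. The rest lay above, among them clusters 3 (6 of 24), 7 (8 of 25) and 12 (31 of 40). By call of the gene, the ETS core stood in the RefSeq promoters of 24 of 47 ZNF genes with H3K4me3 and both antibodies (51.1%). It stood in 43 of 73 with H3K4me3 and no ARID1A (58.9%) and in 35 of 55 with no region (63.6%). The GC box stood in 37 of 47 (78.7%), 38 of 73 (52.1%) and 43 of 55 (78.2%) in the same order. At other chromosome 19 genes the GC box stood in 236 of 297 (79.5%), 105 of 121 (86.8%) and 173 of 358 (48.3%). There the ETS core stood in 82 of 297 (27.6%), 45 of 121 (37.2%) and 38 of 358 (10.6%). A word is a match of letters and not a binding site. Calls rest on any TSS of a gene, so the RefSeq promoter need not be the one that has the region. For ZNF574, which had regions of all 3 lists, the RefSeq window lay inside no region. For ZNF567, counted without ARID1A, it lay inside an Abcam region. The median CpG ratio, observed over expected, was 0.789 for ZNF genes with H3K4me3 and both antibodies, 0.812 for those with H3K4me3 and no ARID1A and 0.627 for those with no region. Other chromosome 19 genes with no region had 0.362.

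Of 18 genes whose products act with KRAB zinc finger proteins, 17 had H3K4me3, against 53.1% of all genes, 12 had both antibodies, against 38.2%, and none was without a region, against 39.7%. Among the 17 with H3K4me3, 11 had both antibodies, beside 63.8% of all genes with the mark. TRIM28, the corepressor that the KRAB domain binds, had Abcam 1810 bp, CST 1670 bp and H3K4me3 4446 bp, and SETDB1, the H3K9 methyltransferase it recruits, had 714, 1400 and 1967 bp in the same order. The genes of the chromatin remodeller ATRX (2299 bp), the DNA methyltransferase DNMT1 (2933 bp) and the HUSH complex subunit TASOR (1870 bp) had H3K4me3 and no ARID1A region. ATF7IP, a partner of SETDB1, had both antibodies and no H3K4me3 region.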

How the data were processed

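CUT&RUN regions of ARID1A (Abcam and CST) and H3K4me3 in RT112 cells were analysed. The authors aligned reads with bwa-mem2, removed duplicates and reads that did not map uniquely, scaled replicates by spike-in, called regions with SEACR and merged replicates with bedtools. Tools in the submitters' processing notes are SEACR, bedtools, deepTools, Picard, cutadapt and bcl2fastq, without versions, on the build hg38. The methods give the relaxed mode of SEACR and the names of the lists the stringent one, and they add that a small top share of the peaks was kept, so the threshold is uncertain, and a missing region may lie just under it. The deposited lists hold start and end positions (chromosome, start, end) and no signal, score or p-value. Positions are printed counting from 1.

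Regions were set against GENCODE 44 genes with Python 3.11.15, numpy 2.4.6, pandas 2.3.3 and scipy 1.17.1. A region counted with at least 1 bp in the window of 1 kb around any TSS, so internal TSSs count and lists may lie at different TSSs of a gene. Shares have 95% exact (Clopper-Pearson) intervals, which cover counting error only, and medians have the exact binomial interval. Zinc fingers and KRAB-like stretches were found in translations of the genome (Biopython 1.88) in place of the RefSeq proteins foreseen. Promoter identity used edlib 1.3.9.post1. The overlap counts were checked on simulated regions.

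Named genes were the 10 widest with both antibodies, the 5 widest H3K4me3 regions without ARID1A, those with both antibodies and no H3K4me3, up to 4 of each antibody alone, those with regions at the 3′ exon, the ends of clusters and members with known roles. The first 4 printed promoters came from the first lists, among genes whose RefSeq window lay inside the widest regions named for the gene. ZNF569 and ZNF570, which ranked above ZNF264, met this too and were passed over. The window of ZNF575 lay inside other regions than those named. ZNF91 and ZNF430 were added after their values were seen. Members, lists and alternatives were chosen with earlier results of these data known. Alternatives were other windows, TSSs, widths, overlaps, chains of clusters, last exons and gene subsets. IgG and single replicates were not analysed here.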

Additional observations from a re-analysis of the deposited data

How the results depend on the processing

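Of 141 recomputed values under alternatives, 123 stayed within the interval or 1.5 times of the reported value, 15 moved and 3 changed sign. When regions under the median width of their list were left out, the counts of ZNF genes were 25 (Abcam), 20 (CST), 14 (both) and 29 (H3K4me3), and the difference in share, ZNF minus other chromosome 19 genes, was -17.45 percentage points for Abcam and -13.9 for H3K4me3, where it changed sign. ZNF regions being narrow, this setting removes more of them by construction. Among genes with H3K4me3 and 1 TSS position, the difference for both antibodies was -6.555 points (6 of 14 against 42 of 85), and the cause was not tested. Counting each region once, the median width at other genes was 1496 bp (CST) and 2964 bp (H3K4me3). With the last exons of every transcript, ARID1A away from promoters lay at 2 (Abcam), 3 (CST) and 3 (either) ZNF genes, which adds ZNF552 and ZNF586. The alternatives for the KRAB-like split were chosen after seeing the data. KRAB-like minus other members, H3K4me3 differed by -3.774 points, by 1.379 without clusters 4 and 5, and by 3.416 without shared windows, with intervals that span 0. With at least 95% unique words the difference was -11.11 points for both antibodies and -13.89 within H3K4me3, against -35.32 and -39.12 over all members. The cause was not tested. Chaining at 100 and 500 kb gave 13 and 10 clusters, in place of 12. No paired analysis was possible because the lists are merged over replicates, so no replicate could be left out either. The lists give neither depth nor signal, so a region just under the threshold cannot be told from none.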
